A study of Rattus norvegicus with 64 samples.

Results

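The genes described here encode the proteins of the cytosolic ribosome. They were picked by symbol alone, as every gene named Rps or Rpl with a number, with or without a trailing a, x or l, together with the stalk genes Rplp0, Rplp1 and Rplp2. Of the 17260 genes in the count tables, 79 met this rule, and 78 of them were among the 12521 genes that passed the filter on low counts and were tested. The gene that did not pass was Rpl3l, a paralog of Rpl3 that is known from striated muscle. The ribosomal protein genes Rpsa, Fau, Rpl22l1, Rpl36al and Rps4y2 do not follow the naming rule and are described beside the members.

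The libraries came from untreated Long Evans rats. Total RNA was depleted of ribosomal RNA and sequenced from hand-dissected pieces of the medial (MEC) or lateral (LEC) entorhinal cortex, taken from layer II (LII) or from the deeper layers (LDeep, layers III to VI in the MEC) at postnatal day 2, 9, 23 or 45 (P2, P9, P23 and P45). Each of the 4 tissues (MEC LII, MEC LDeep, LEC LII and LEC LDeep) had 5, 4, 3 and 4 replicates at these ages in turn, which made 16 groups and 64 libraries. The labels do not say whether libraries that share a number came from the same animal, so for comparisons between ages the 4 libraries of an age and number were summed to 1 unit, giving 16 units. The study describes its replicates as biological, and the labels do not name the animal of a library. The p-values measure the spread between these samples.

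Between 3894334 and 11439143 read pairs per library were counted on genes. None of 100 pairs of replicates held identical counts. Of 6 genes chosen to check the layer labels, all 6 differed between layers, with Reln higher in LII (log2 fold change (LFC) of 1.48) and Fezf2 higher in LDeep (LFC of LII over LDeep of -3.17). A tissue piece is a mixture of cell types. Markers of its cell types also moved with age. By edgeR's test, 6 of 6 oligodendrocyte markers, 5 of 6 astrocyte markers, 6 of 6 microglia markers, 4 of 4 erythroid, 3 of 4 mural and 3 of 5 endothelial markers were higher at the older ages, P23/P45, than at the younger, P2/P9. The astrocyte marker Aldh1l1 (-0.29) and the endothelial marker Kdr (-0.90) were lower, as were 5 of 5 markers of cycling cells. Of 10 neuron markers 6 were higher and 3 lower, and of 9 meningeal fibroblast markers 2 were higher and 2 lower. Of 3 oligodendrocyte precursor markers 1 was higher, as was 1 of 2 tested choroid plexus markers. Over all tested genes 39.0% were higher and 39.6% lower at the older ages. The oligodendrocyte markers summed to 94.6 to 176 CPM (counts scaled to a common library total) in the libraries of P2 and to 1355 to 16290 CPM in those of P23, the astrocyte markers to 553 to 2036 and 2511 to 4691 CPM, the microglia markers to 58.4 to 159 and 244 to 421 CPM, and the markers of cycling cells to 91.3 to 248 and 12.6 to 22.6 CPM. The neuron markers summed to 4985 to 7168 CPM at P2 and 4976 to 6718 CPM at P23, and no marker of these lists was at 0 throughout an age. Between layers, 8 of 9 meningeal fibroblast markers were higher in LII and 1 lower, with summed levels of 25.9 to 1625 CPM in LII and 27.95 to 1105 CPM in LDeep. Also higher in LII were 5 of 6 astrocyte, 5 of 5 endothelial, 4 of 4 mural, 4 of 4 erythroid and 4 of 6 microglia markers and 3 of 5 markers of cycling cells. Lower in LII were 4 of 6 oligodendrocyte and 4 of 10 neuron markers, and 1 other neuron marker was higher. Of 3 oligodendrocyte precursor markers 1 was higher in LII and 1 lower, and 2 of 2 tested choroid plexus markers were higher. Over all 12521 tested genes 2943 were higher in LII and 3824 lower. The part of these differences in cell mixture in the results below was not tested.

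The cytosolic ribosome is built from a small subunit, which reads the mRNA, and a large subunit, which joins amino acids and carries a flexible stalk that recruits the elongation factors. Each ribosome holds nearly all of its proteins in a single copy, and their genes are usually expressed in close proportion to each other and at high level in growing cells. Most of their mRNAs begin with a 5′ terminal oligopyrimidine (TOP) tract, an unbroken run of C and T (U in the mRNA) at the transcription start, through which mTOR and LARP1 control their translation. Because ribosomal RNA was removed from these libraries, the measurements concern the mRNAs of the ribosomal proteins and not the ribosomes themselves.

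The sequence that members share was looked at before their levels. RefSeq promoters of the rat build GRCr8 were at hand for 63 of the 79 members. The windows below run from 20 bases before to 25 bases after the annotated start, 5′ to 3′ on the gene's strand, with runs of 8 or more pyrimidines in capitals. They are shown for members with the largest or smallest changes with age and for the pair Rps27 and Rps27l.
Rplp0 (chr12:46718366-46718410, minus strand): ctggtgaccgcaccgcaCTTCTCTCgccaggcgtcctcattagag
Rps2 (chr10:14251828-14251872, plus strand): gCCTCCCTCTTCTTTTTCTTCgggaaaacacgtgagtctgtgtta
Rpl39 (chrX:121195872-121195916, minus strand): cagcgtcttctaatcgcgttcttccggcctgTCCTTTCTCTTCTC
Rpl22 (chr5:168117941-168117985, plus strand): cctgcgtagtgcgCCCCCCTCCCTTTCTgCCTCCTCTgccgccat
Rpl9 (chr14:43247570-43247614, plus strand): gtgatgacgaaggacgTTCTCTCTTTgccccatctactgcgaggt
Rpl37 (chr2:55942925-55942969, plus strand): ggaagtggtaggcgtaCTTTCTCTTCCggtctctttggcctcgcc
Rps27 (chr2:177964582-177964626, minus strand): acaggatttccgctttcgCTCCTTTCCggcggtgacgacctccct
Rps27l (chr8:76443638-76443682, plus strand): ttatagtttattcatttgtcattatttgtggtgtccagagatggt

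A run of at least 8 pyrimidines (any order of C and T) on the gene's strand was found in this window for 49 of the 63 members (77.8%), against 5788 of 33469 promoters of all genes (17.3%). On the opposite strand, where the same letters read as a run of purines, it was found for 2 members (3.17%) and for 19.2% of all promoters. The longest run within the window was 20 bases in Rps2, 15 in Rpl22, 14 in Rpl39 and 8 in Rplp0. The run of Rpl39 reaches the end of the window and may be longer. Rps27l was the shown member without such a run, and its longest pyrimidine run was 3 bases. These are matches of letters near an annotated start and not mapped starts. The run was present in 40 of the 53 matched members that were lower at the older ages (75.5%) and in 8 of the 9 matched members that did not pass that test (88.9%).

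The share of all counted read pairs that fell on the 79 members was read first. In the units it was 2.54, 2.79, 3.22, 2.11 and 2.80% at P2 and 2.10, 2.12, 2.34 and 2.76% at P9. It was 1.57, 1.496 and 1.83% at P23 and 1.95, 1.66, 1.92 and 1.42% at P45. Every unit of the older ages lay below every unit of the younger ages. The mean over units was 2.53% in younger (P2/P9) and 1.69% in older (P23/P45) rats, a difference of -0.84 percentage points (two-sided exact permutation p = 0.0001748, n = 9 and 7 units, the smallest p that this design allows).

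**Figure D1:**
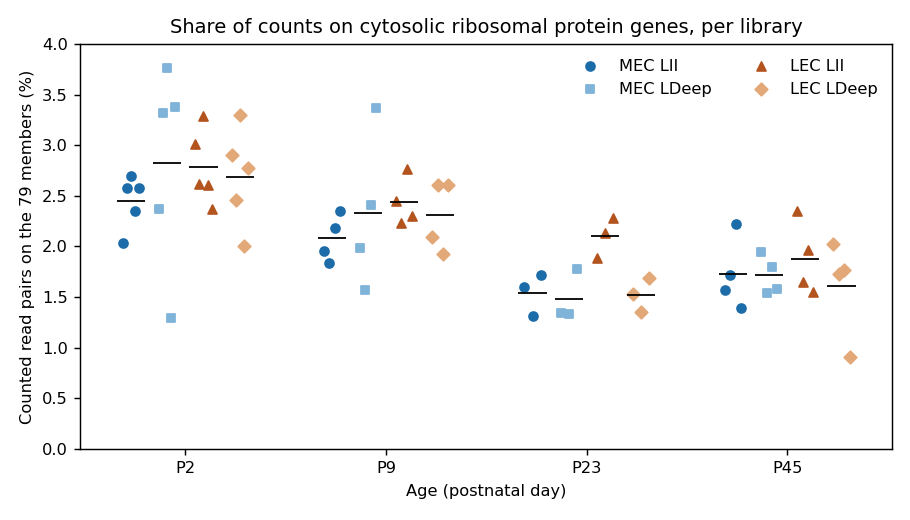
Percent of counted read pairs on the 79 cytosolic ribosomal protein genes (vertical axis) in each of the 64 libraries by age (horizontal axis), with 1 symbol per tissue and a bar at the mean of each group. Libraries spread from 0.912 to 3.76%, and those of MEC LDeep at P2 spread most.

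Single libraries were less orderly than the units. The lowest share was 0.912% in LEC LDeep at P45, replicate 4, and the highest 3.76% in MEC LDeep at P2, where replicate 4 held 1.29%. The 5 libraries of MEC LDeep at P2 had a mean of 2.82% ± 0.997 (SD), while the 5 of MEC LII at P2 had 2.45% ± 0.260.

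The comparison of the younger with the older ages asked which genes changed over the postnatal weeks in which the entorhinal cortex matures. The members fell as a group. By the quasi-likelihood test of edgeR with Benjamini-Hochberg adjustment over all genes, 67 of the 78 tested members were lower at P23/P45 than at P2/P9, against 39.6% of all genes tested, and 0 were higher, against 39.0%. The median LFC was -0.48 over the members and -0.01 over all tested genes, with quartiles of -0.65 and -0.38 over the members. The median SE of a member's LFC was 0.099. In bulk tissue, fewer cells of a type and less RNA per cell cannot be told apart, and CPM give a gene's part of the counted RNA and not its amount per cell.

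Members of both subunits were among those that fell. Of 30 tested members of the small subunit, 27 were lower with age (median LFC -0.49), and of 46 of the large subunit, stalk included, 39 were lower (median LFC -0.47). The mean level of the tested members ran from 0.651 CPM for Rpl39l to 939 CPM for Rplp0. Across the 78 members the change with age had a Spearman correlation of 0.10 with mean log2 CPM and of -0.10 with exonic length. These correlations are descriptions across genes that share their libraries. Exonic length is summed over every place where the annotation holds a gene, so it overstates the transcript of members held at more than 1 place.

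**Figure D2:**
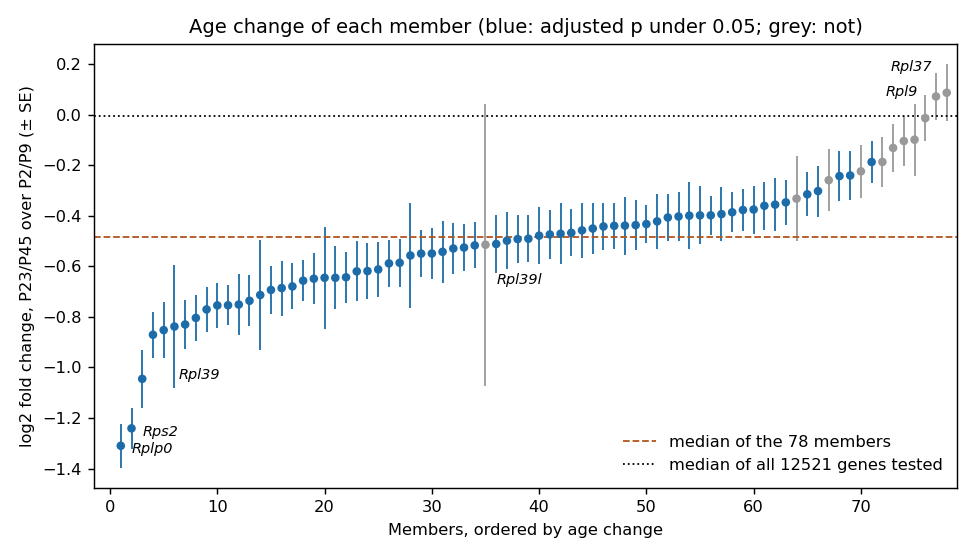
LFC of P23/P45 over P2/P9 for each of the 78 tested members, ordered from the lowest to the highest (horizontal axis: rank, vertical axis: log2 fold change), with bars of ± 1 SE. Rplp0 (-1.31), Rps2 (-1.24) and Rpl39 (-1.05) lie below the rest, and Rpl9 (0.07) and Rpl37 (0.09) lie at the upper end.

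Rplp0 encodes the protein that anchors the stalk to the large subunit. It lies on chr12:46791529-46794797 (rn6, minus strand, 7 exons). Its level was 1219, 1404, 1677, 1197 and 1508 CPM at P2, 1056, 1034, 1118 and 1331 CPM at P9, 528, 497 and 608 CPM at P23, and 511, 450.5, 527 and 412 CPM at P45. The highest older unit lay well below the lowest younger unit. Its LFC of -1.31 (SE 0.086, adjusted p = 6.2e-10) was the largest among the members. It fell from P2 to P9 (LFC -0.30, adjusted p = 0.028) and from P9 to P23 (LFC -1.06).

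Rps2, a small subunit protein at the entry of the mRNA channel, lies on chr10:14088171-14090021 (rn6, plus strand, 7 exons). It stood at 930, 1099, 1173, 878 and 1100 CPM at P2 and at 823, 772, 899 and 996 CPM at P9. At P23 it stood at 410, 397 and 448 CPM, and at P45 at 412, 361, 442 and 332 CPM. The younger and older units did not overlap, and the LFC was -1.24 (SE 0.080, adjusted p = 4.8e-10).

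Rpl39, a small protein that lines the exit tunnel of the large subunit, had an LFC of -1.05 (SE 0.114, adjusted p = 3.1e-07). Its units held 118, 141, 151, 98.5 and 132 CPM at P2, 105, 115, 133 and 140 CPM at P9, 59.8, 58.9 and 80.0 CPM at P23, and 65.6, 54.4, 62.4 and 41.6 CPM at P45. The ages again separated without overlap. The annotation used for counting places Rpl39 at 3 places, of which 1 has several exons (chrX:123705241-123708176, rn6, minus strand) and the others are single exons, and reads that fit more than 1 of them could not be told apart.

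Rpl15 and Rpl22 came next among members of at least 1 CPM. Rpl15, a core protein of the large subunit, had an LFC of -0.87 (SE 0.092, adjusted p = 2.2e-07). It stood between 425 and 596 CPM at P2, between 360 and 491 CPM at P9, and between 208 and 278 CPM in the 7 older units. Rpl22, an RNA-binding protein on the surface of the large subunit, had an LFC of -0.85 (SE 0.111, adjusted p = 2.7e-06) and stood between 75.02 and 132 CPM in younger and between 45.4 and 67.2 CPM in older units.

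**Figure D3:**
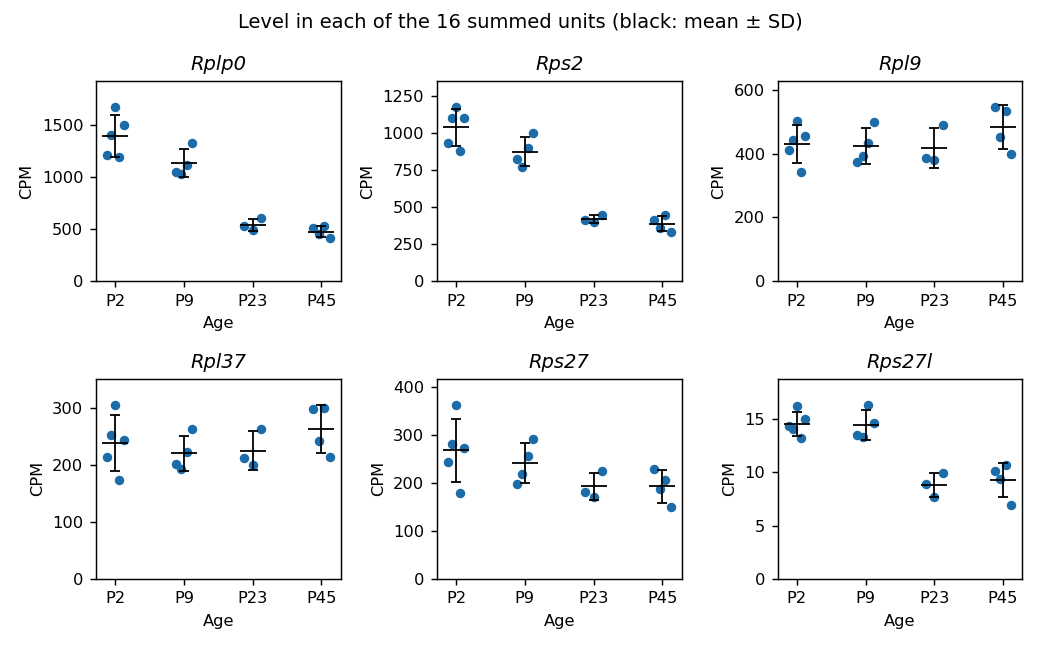
Level of 6 members (vertical axes: CPM, from 0) in each of the 16 units by age (horizontal axes), with the mean ± SD in black. In Rplp0, Rps2 and Rps27l the older units lie below all younger ones, while in Rpl9 and Rpl37 the ages overlap.

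Rplp0 and Rps2 were not alone in separating the ages. In 26 of the 78 tested members every unit of P23 and P45 lay below every unit of P2 and P9, against 21.6% of all tested genes. Besides Rplp0, Rps2, Rpl39, Rpl15 and Rpl22 these included Rps4x, Rpl10, Rpl29 and Rps27l.

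The stalk members did not move by the same amount. Rplp1, an acidic protein at the tip of the stalk, had an LFC of -0.40 (SE 0.077, adjusted p = 0.00018). It stood at 355, 427, 496, 392 and 447 CPM at P2, 415, 405, 408 and 482 CPM at P9, 296, 291 and 330 CPM at P23, and 384, 317, 374 and 289 CPM at P45. The ages overlapped, since the lowest unit at P2 lay below the 2 highest at P45. Its partner Rplp2 had an LFC of -0.56 (SE 0.21, adjusted p = 0.022) from units between 1.65 and 4.87 CPM. The annotation holds Rplp2 at 2 places with 5 exons each, which may share reads, and its adjusted p rose to 0.054, 0.066 and 0.0502 without P9 replicate 4, P23 replicate 1 or P23 replicate 2.

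For 11 tested members the change with age did not pass, namely Rpl37, Rpl9, Rps16, Rpl30, Rps14, Rpl13a, Rpl21, Rpl37a, Rpl35a, Rps6 and Rpl39l. Rpl37, a zinc-binding protein of the large subunit, stood at 215, 253, 306, 173 and 243 CPM at P2, 202, 193, 223 and 263 CPM at P9, 212, 199 and 264 CPM at P23, and 298, 242, 299 and 214 CPM at P45. Its LFC was 0.09 (SE 0.113, adjusted p = 0.49), and the ages overlapped in full.

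Rpl9, a large subunit protein near the base of the stalk, had an LFC of 0.07 (SE 0.094, adjusted p = 0.48). It stood at 410, 443, 503, 342 and 454 CPM at P2, 373, 391, 434 and 498 CPM at P9, 386, 379 and 490 CPM at P23, and 546, 452, 534 and 399 CPM at P45. Rps16, of the small subunit, had an LFC of -0.01 (SE 0.091, adjusted p = 0.90) with units between 56.5 and 84.3 CPM. For Rpl37 and Rpl9 the difference from the members' median was more than 0.5 on the log2 scale, as it was on the other side for Rplp0, Rps2 and Rpl39. Rpl9 is annotated at 3 places and Rpl37 at 2, of which 1 each has several exons.

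Rps6, the small subunit protein that S6 kinases phosphorylate, had an LFC of -0.33 (adjusted p = 0.080) at a mean of 6.12 CPM. It belongs to 9 members that the annotation holds at 2 or more places with several exons each, the others being Rps9, Rps19, Rpl7a, Rplp2, Rpl35a, Rpl8, Rpl10a and Rpl13. Their median level was 6.12 CPM, against 292 CPM for the 59 members at 1 place. Rps9, Rps19, Rplp2, Rps6, Rpl7a and Rpl8, each with 2 places of equal exon number, stood between 1.30 and 15.6 CPM. Rpl13 stood at 346 CPM and Rpl10a at 184 CPM, and their second place holds 2 exons against 6 at the first. How pairs that match several places were counted is not stated in the sources used here, so the levels of all 9 members are uncertain. Of the 59 members at 1 place, 53 were lower with age, and of the 19 at more than 1 place, 14.

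Paralogs were set beside their parents. Rps27l, a paralog of Rps27 known as a target of p53, stood at 14.4, 14.1, 16.2, 13.2 and 15.0 CPM at P2, 13.5, 13.3, 16.4 and 14.7 CPM at P9, 8.94, 7.69 and 9.95 CPM at P23, and 10.1, 9.42, 10.7 and 6.97 CPM at P45. The ages did not overlap, and the LFC was -0.68 (SE 0.091, adjusted p = 3.7e-06). Rps27 itself was more abundant, and its ages overlapped, with 245, 282, 363, 180 and 272 CPM at P2, 198, 218, 257 and 292 CPM at P9, 182, 172 and 225 CPM at P23, and 230, 188, 207 and 150 CPM at P45. Its LFC was -0.40 (SE 0.131, adjusted p = 0.011). The difference between the LFCs of the pair was not tested.

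Rpl39l, a paralog of Rpl39 known from testis, was barely counted, with units between 0.035 and 1.48 CPM and an LFC of -0.51 (SE 0.559, adjusted p = 0.41). A change was not detectable at this depth. Rpl3l stood between 0 and 0.589 CPM in the units. Its parent Rpl3, which reaches towards the peptidyl transferase centre, stood between 586 and 924 CPM in younger and between 505 and 602 CPM in older units (LFC -0.43, SE 0.075, adjusted p = 6.2e-05). Rpl10, needed late in the assembly of the large subunit, had an LFC of -0.75 (SE 0.089, adjusted p = 8.5e-07) and no overlap of ages. Rpl10l, its testis paralog, was not analysed here.

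By mean CPM per kilobase of exon, the most abundant members were Rps29 (1650), Rpl41 (1371) and Rplp0 (860). Rps29, a zinc-binding protein of the small subunit, stood between 497 and 695 CPM in younger and between 370 and 551 CPM in older units (LFC -0.37, SE 0.095, adjusted p = 0.0018). Rpl41, the smallest ribosomal protein, stood between 556 and 851 CPM in younger and between 381 and 593 CPM in older units (LFC -0.53, SE 0.101, adjusted p = 0.00016). In both genes the ranges overlapped.

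The 5 ribosomal protein genes listed at the start as outside the naming rule were read the same way. Rpsa, a small subunit protein also known as a laminin receptor, had an LFC of -1.37 (SE 0.091, adjusted p = 7.1e-10) at a mean of 826 CPM. Rps4y2 had an LFC of -1.42, Fau of -0.23 and Rpl22l1 of -0.18, all past the test. Rpl36al had an LFC of 0.12 (adjusted p = 0.15). Thus 4 of these 5 genes were lower with age.

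The change was also read between neighbouring ages. These comparisons share units with each other and with the comparison of younger and older ages. From P2 to P9, 12 of 78 members were lower, against 27.2% of all genes, with a median LFC of -0.21, which was -0.13 without P2 replicate 3 and -0.32 without P9 replicate 4. From P9 to P23, 46 were lower, against 29.6% of all genes, with a median LFC of -0.40. From P23 to P45 edgeR, limma voom and DESeq2 called 0 members, 0 had an unadjusted p under 0.05 in edgeR, and 0.519% of all genes passed, with a median member LFC of 0.07.

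The 12 members lower from P2 to P9 included Rpl10, Rpl8, Rpl6, Rpl18, Rpl15, Rps4x, Rpl3, Rpl5, Rplp0 and Rpl29. Rpl10 was the furthest, with an LFC of -0.51 (adjusted p = 0.0016) and levels of 456, 521, 590, 406 and 554 CPM at P2 and 328, 312, 341 and 440 CPM at P9. The count rested on single replicates, since it was 33 without P9 replicate 4, 30 without P2 replicate 4, 6 without P2 replicate 3, P9 replicate 1 or P9 replicate 2, and 7 without P2 replicate 5 or P9 replicate 3. From P9 to P23 the count was 26 without P23 replicate 2 and 28 without P23 replicate 1 or P9 replicate 4.

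The members' own spread was large, and it was shared. Within groups a member had a median SD of 0.34 log2 CPM, against 0.26 for all tested genes. Deviations from the group mean had a mean correlation of 0.816 over the 3003 pairs of members, across the 64 libraries. In a library the median deviation of the members ranged from -0.97 to 0.61 log2 CPM.

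These deviations went with exonic length. Members are short, with a median exonic length of 709.5 bases (from 318 to 3386) against 2183 bases for all tested genes, and 56 of the 78 were under 1000 bases. This length adds up all places of a gene, and the 3386 bases of Rpl7a cover 4 places. Across the 64 libraries the median deviation of the members had a Pearson correlation of 0.94 and a Spearman correlation of 0.92 with the median deviation of 572 other genes under 1000 bases (both with a permutation p of 2e-05, the lowest that 100000 resamples can reach). It was 0.913 without the 2 libraries farthest from the median, lay between 0.861 and 0.990 within the 4 ages, and was 0.924 over the 16 units. With the 1620 other genes of 4000 bases or more the Pearson correlation was -0.87 and the Spearman correlation -0.83 (both with a permutation p of 2e-05). Adjusting for the 2 gene sets compared leaves these p-values at 2e-05. The libraries of a number may share an animal and are then not independent.

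**Figure D4:**
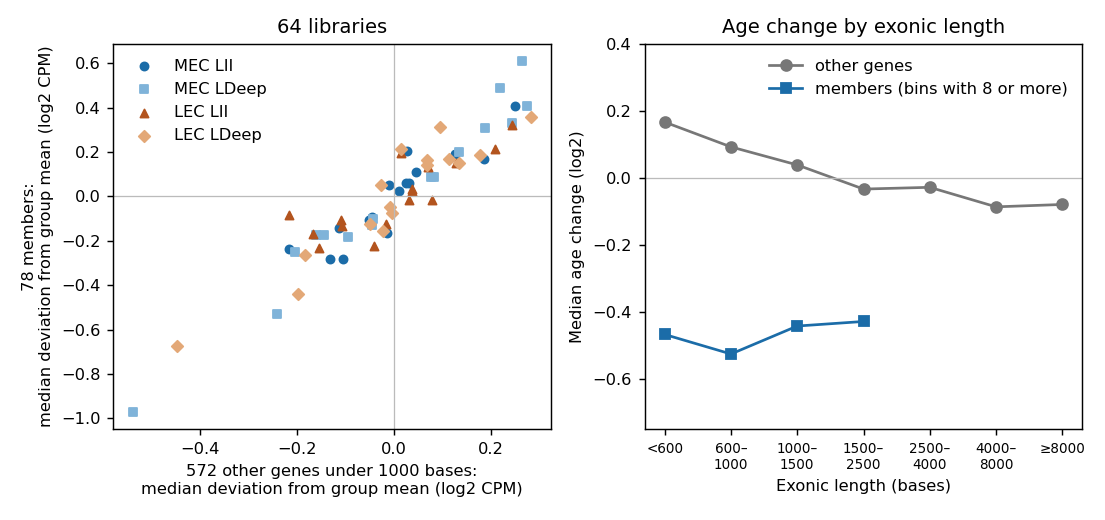
Left, median deviation from the group mean (log2 CPM) of the 78 members (vertical axis) against that of 572 other genes under 1000 bases (horizontal axis) in the 64 libraries, with a correlation of 0.94. Right, median LFC of P23/P45 over P2/P9 (vertical axis) by exonic length (horizontal axis) for other genes (grey) and for members (blue, lengths with at least 8 members), where the shortest other genes lie at 0.17 and the members at -0.47. Exonic length is summed over all places of a gene.

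Short genes other than the members had medians of the opposite sign. The 141 other genes under 600 bases had a median LFC of 0.17 from younger to older ages, and the 431 of 600 to 1000 bases had 0.09. Members of those lengths had medians of -0.47 (29 genes) and -0.53 (27 genes). At 8000 bases or more the median of the other genes was -0.08.

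In an alternative chosen after the data had been seen, a smooth trend of log2 CPM with exonic length was fitted in each library on genes other than the members and taken out. Differences between ages or layers that themselves go with length are removed with it. For members at more than 1 place the length used was the sum over places. With this trend removed, 72 of 78 members were lower with age, against 39.9% of all genes, with a median LFC of -0.62, and the members' SD within groups was 0.18 log2 CPM. From P2 to P9, 66 members were then lower (29.9% of all genes, median LFC -0.45), and from P9 to P23, 62 (30.3% of all genes, median LFC -0.42). Rpl9, Rps16, Rpl35a, Rpl37, Rps6 and Rpl39l did not pass in the comparison of younger and older ages in this form either.

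The 4 tissues were then compared for the change with age, in a fit of the 64 libraries. In MEC LII 43 members were lower (32.0% of all genes, median LFC -0.38), in MEC LDeep 67 (34.1%, median LFC -0.59), in LEC LII 26 (29.4%, median LFC -0.26) and in LEC LDeep 63 (31.7%, median LFC -0.53). The share of members called in LEC LII was thus near that of all genes. In LEC LII 2 members, Rps9 and Rps6, were higher with age, against 33.4% of all genes.

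**Figure D5:**
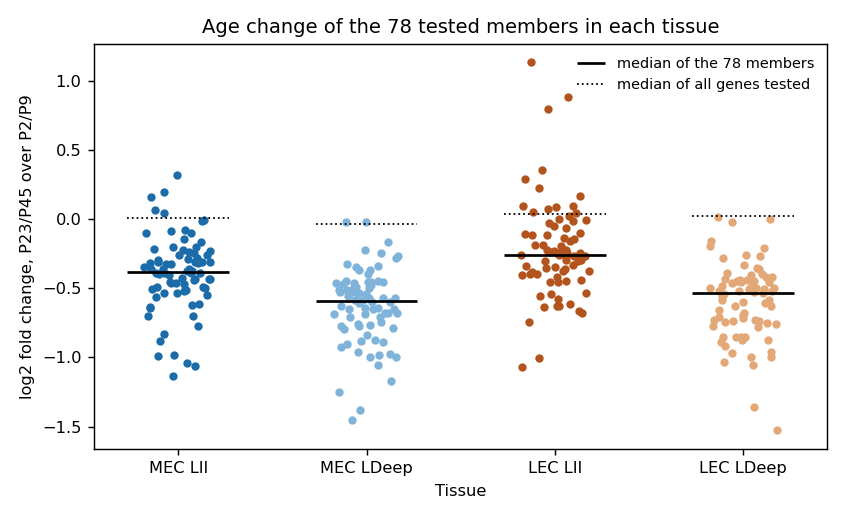
LFC of P23/P45 over P2/P9 (vertical axis) for the 78 tested members in each of the 4 tissues (horizontal axis), with the members' median as a solid line and the median of all genes tested as a dotted line. The medians of the members lie at -0.38 in MEC LII, -0.59 in MEC LDeep, -0.26 in LEC LII and -0.53 in LEC LDeep.

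The difference between layers in the change with age was tested as an interaction. All 78 members had a positive value (a smaller fall in LII than in LDeep), with a median of 0.28. Members deviate together within libraries (mean correlation 0.816), so these signs are not independent of each other. The number of members that passed the test was 3, against 4.83% of all genes in this direction. Without P2 replicate 4 it was 6, and without P9 replicate 4 or any of the 3 replicates of P23 it was 1. With the length trend removed the members' median was 0.17. The 572 other genes under 1000 bases had medians of 0.13 (under 600 bases) and 0.09 (600 to 1000 bases) in the same interaction. Rplp0 had a difference of 0.44 (adjusted p = 0.021), with LFCs of -1.04 in MEC LII, -1.46 in MEC LDeep, -1.07 in LEC LII and -1.53 in LEC LDeep. The adjusted p of Rplp0 was 0.063, 0.062, 0.092 and 0.068 without P9 replicate 4 and P23 replicates 1, 2 and 3.

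Rps9, of the small subunit, also passed. It was counted at few pairs (mean 5.01 CPM) and is annotated at 2 places. In LEC LII it stood at 2.84, 1.11, 2.60, 2.08 and 0.88 CPM at P2, 1.81, 3.94, 6.62 and 7.09 CPM at P9, 5.80, 7.13 and 13.3 CPM at P23, and 7.58, 5.37, 5.80 and 2.86 CPM at P45. In the other tissues it fell, with LFCs of -0.88 in MEC LII, -1.17 in MEC LDeep and -0.99 in LEC LDeep, against 1.13 in LEC LII. The interaction of age with layer was 1.21 (adjusted p = 0.0076). Between regions, the LFC with age was lower in MEC than in LEC for 59 of 78 members, whose signs are not independent of each other. The median difference was -0.06 over the members and -0.02 over all genes. Without P9 replicate 4 the members' median was 0.006. Rps9 was also the 1 member that passed the test of age by region (-1.10, adjusted p = 0.029), against 2.30% of all genes. That count was 0 without P2 replicate 5, P9 replicate 1, P9 replicate 4, P23 replicate 1, P23 replicate 2, P23 replicate 3 or P45 replicate 1, and 2 without P9 replicate 3 or P45 replicate 3.

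LII and LDeep were compared with ages and regions weighted equally. This averages over ages and regions in which the members' medians had opposite signs, as given below. The median LFC of LII over LDeep was -0.02 over the members and -0.05 over all genes, and 1 of 78 members passed, against 54.0% of all genes. That member was Rps27l. It ranged over 6.05, 13.3 and 20.7 CPM (lowest, median and highest of 32 libraries) in LII and 3.83, 9.36 and 17.8 CPM in LDeep. The ranges overlapped, and the LFC was 0.35 (adjusted p = 0.0019). The call was lost with voom and quantile normalization (LFC 0.17, adjusted p = 0.14) and in the MEC alone (LFC 0.27, adjusted p = 0.18). The number of members called was 3 without P2 replicate 2, P9 replicate 2 or P9 replicate 4, and 2 without P2 replicate 3 or P9 replicate 1.

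With the length trend removed, 18 members were higher in LII, against 29.1% of all genes, and 0 were lower. The largest LFCs were 0.43 for Rps27l, 0.21 for Rplp0, 0.20 for Rplp1 and 0.18 for Rps28, and the median over members was 0.06.

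Layers were also compared within each region and age. Over all genes the medians lay between -0.06 and -0.02. The members' median LFC was -0.15 in MEC (74 of 78 negative) and 0.115 in LEC (75 positive). By age it was -0.16 at P2 (77 negative), -0.14 at P9 (74 negative), 0.20 at P23 (78 positive) and 0.04 at P45 (54 positive). These signs are not independent of each other. With the length trend removed the medians were -0.01 in MEC, 0.13 in LEC and -0.09, 0.05, 0.19 and 0.10 at the 4 ages. A few members passed. In LEC, Rps27l (LFC 0.44), Rplp1 (0.30) and Rplp0 (0.25) were higher in LII, 3 of 78 against 17.4% of all genes. In MEC, Rplp2 (-0.65), Rps19 (-0.62) and Rps29 (-0.29) were lower in LII, 3 of 78 against 19.9%. At P2, 3 of 78 members were lower in LII, against 8.48%, among them Rps9 (-0.99) and Rplp2 (-0.86). At P23, Rps27l (0.63) and Rplp0 (0.43) were higher in LII, 2 of 78 against 14.8%.

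In the comparison of medial with lateral cortex, the median LFC of MEC over LEC was -0.08 over the members and 0.01 over all genes. By edgeR 0 of 78 members were called, against 15.4% of all genes, with 3 at an unadjusted p under 0.05. Limma voom and DESeq2 each called 1. In edgeR 1 was called without P2 replicate 2, P2 replicate 3, P9 replicate 4, P23 replicate 3 or P45 replicate 4. The 2 layers differed in sign. In LII alone 78 of 78 members had a negative value (median -0.21, against 0.01 over all genes), 31 of them at an unadjusted p under 0.05. In LDeep 67 had a positive value (median 0.05). Members deviate together, so these signs and p-values are not independent. In LII Rpl39 (-0.42), Rps29 (-0.36) and Rplp1 (-0.35) were called lower in MEC than in LEC, 3 of 78 against 4.26% of all genes. With the length trend removed the medians were -0.12 in LII and 0.03 in LDeep. The layer difference itself was lower in MEC than in LEC for 77 of 78 members (median -0.27), whose signs are not independent of each other. Here edgeR and limma voom called 0 members, with 17 at an unadjusted p under 0.05 in edgeR, and 1.25% of all genes passed. Other genes under 600 bases had a median of -0.17 in the same interaction, and the members' median was -0.13 with the length trend removed.

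Genes that work with the ribosome were listed beside the members, and some genes stand on more than 1 list. Over all tested genes 39.6% were lower and 39.0% higher at the older ages. Of 20 other tested genes whose mRNAs are known to carry a TOP tract, 20 were lower at the older ages (median LFC -0.50), with Hnrnpa1, an RNA-binding protein, at -1.53 and Rpsa at -1.37. Of 8 genes of translation elongation, 7 were lower, among them Eef1g (-0.82) and Eef1a1 (-0.81), and 1 was higher. The latter was Eef1a2 (1.09), the form of the elongation factor eEF1A that mature neurons and muscle use. Of 29 initiation factors, 20 were lower and 2 higher, with a like pair of helicases moving apart, Eif4a1 at -1.19 and Eif4a2 at 0.58.

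Of 26 genes of ribosome biogenesis and RNA polymerase I, which makes ribosomal RNA, 22 were lower and 0 higher (median LFC -0.44), with the polymerase subunit Polr1e at -1.05 and the nucleolar GTPase Gnl3 at -0.84, where 39.6% of all genes were lower and 39.0% higher. Of 17 regulators, 8 were lower and 4 higher (median LFC -0.02), near those shares for so few genes. The transcription factors Myc (-2.96) and Mycn (-2.62) were lower, while Rptor (0.46) and Mlst8 (0.25), parts of the mTOR complex, were higher. Of 9 S6 kinase genes, 5 were lower, such as Rps6ka6 (-1.49) and Rps6kb2 (-0.49), and 3 higher, such as Rps6kc1 (0.62) and Rps6ka4 (0.53), also near the shares over all genes. Of 12 host genes of small nucleolar RNAs, 8 were lower, such as Gas5 (-0.93), and 2 higher, such as Snhg11 (1.00).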

How the data were processed

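Per the labels and the study's methods, the authors used Trimmomatic 0.33 for trimming and STAR 2.4.0 for mapping to rn6, and counted read pairs, by strand, on RefSeq exons with featureCounts (Subread 1.4.6-p1). The deposited values are raw counts per gene for each of the 64 libraries. Pairs overlapping several genes were counted for each of them, and no option for pairs that map to several places was stated, so the counts of members with near-identical copies are uncertain. Gene positions on rn6 are those of the files.

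Counts were scaled by TMM in edgeR 4.0.16 (R 4.3.3) and filtered by filterByExpr. Genes were tested by the quasi-likelihood test with a mean per group, with Benjamini-Hochberg adjustment over all 12521 genes and a threshold of 0.05. Ages were compared on 16 units, each the sum of 4 libraries. Log2 CPM used a prior count of 2. The SE is the LFC divided by the root of the F statistic. A gene's places on the genome were split at gaps over 8000 bases.

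Members were named with values if they were among the 5 largest changes per direction past the threshold, lay over 0.5 (log2) from the median change with age, did not pass the filter, belonged to the paralogs and their parents or to the stalk, or were among the 3 highest per kilobase. Other genes on a list were named as the 2 largest changes per direction. Rps9, Rps6 and Rps16, members named where few were called or not called, and members named as examples were added after values had been seen. Some genes that passed a test are counted but not reported here by name. The members and lists were chosen with earlier results of these data known. Alternatives were limma 3.58.1 (voom, TMM and quantile normalization), DESeq2 1.42.0, RLE size factors, scaling without the members, other filters, MEC only, 64 libraries in place of sums, the replicate number as a block, each replicate left out, and a length trend removed (lowess, span 0.5, on genes with a mean log2 CPM over 4). Scripts were tested on simulated data.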

Additional observations from a re-analysis of the deposited data

Results flagged for a closer look

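In 2 members the unit P9 replicate 4 stood apart from the other P9 units by Dixon's test. Rpl15 was at 491 CPM there, against 362, 360 and 382 CPM in the other 3 units, and Rplp1 was at 482 CPM, against 415, 405 and 408 CPM. Such a test flags about 1 in 20 groups by chance, and 63 groups of values were tested. P9 replicate 4 also had the highest share of counts on members at P9 (2.76%).

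By edgeR's interaction term, 3 of 78 members passed with a positive value for age by layer, against 4.83% of all genes. Among them were Rps9 (1.21, adjusted p = 0.0076) and Rplp0 (0.44, adjusted p = 0.021). For age by region Rps9 passed with a negative value (-1.10, adjusted p = 0.029), 1 of 78 members against 2.30% of all genes. Of 16 fits that each left out a replicate, 4 lost the Rplp0 call and 7 lost the Rps9 call between regions.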

How the results depend on the processing

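The fall of the members with age kept its direction and its count within 1.5 times under each alternative, from 53 of 59 (members at 1 place) to 72 of 78 members called (voom with quantile normalization, and the length trend removed), and with 63 to 71 lower and a median from -0.54 to -0.44 when each replicate was left out. The fall in the share of counts was then -0.89 to -0.75 points. From P2 to P9 the 12 members called became 6 in the MEC alone (median -0.25), 33 with 64 libraries in place of sums and 66 with the length trend removed (median -0.45), and 6 to 33 without single replicates. From P9 to P23 the 46 became 24 in the MEC alone, where the median was -0.49 against -0.40, and 26 to 57 without single replicates. For layers the 1 call became 8 with voom and quantile normalization (3 higher, 5 lower), 2 with DESeq2 and with RLE size factors, 3 with at least 10 counts in every library, 18 with the length trend removed, and 1 to 3 without single replicates. For regions the 0 calls became 1 with voom, DESeq2 or the length trend removed, and 0 to 1 without single replicates. Age by layer had 5 calls with the length trend removed and 1 to 6 without single replicates, age by region 0 with voom, 2 with the length trend removed and 0 to 2 without single replicates, and layer by region 1 with the length trend removed. Rpl9 turned to -0.072 with voom and Rpl37 to -0.028 with the length trend removed, and neither was called. The cause of these shifts was not tested, and some of these alternatives also held fewer samples.

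The labels do not say that a replicate number pairs libraries. Deviations of libraries with the same number correlated at 0.134 on average (from -0.259, over 0.1 in 55 of 96 pairs), against -0.043 for other numbers. Libraries with the same number thus deviated together to a weak degree. For its miRNA samples the study states that a number within an age marks LII and LDeep pieces of the same animal. The main fits for layers, regions and interactions used no pairing, so any pairing that exists was ignored there. With the replicate number as a block the calls were 2 for layers, 1 for regions and 2 for age by region, and 24 from P2 to P9 with 64 libraries in voom. At this depth Rpl3l (115 counts over all libraries) was not tested, and Rpl39l (316 counts) had an SE of 0.56 for its change with age.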

Other observations

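The proteins of the mitochondrial ribosome, which translates the few mRNAs made in mitochondria, were set beside the members as a list chosen after values had been seen. Of 67 tested genes, 35 were higher at P23/P45 than at P2/P9 and 6 were lower by edgeR's test, against 39.0% and 39.6% of all tested genes. Their median LFC was 0.17, where the cytosolic members had -0.48 and other genes under 600 bases 0.17. Mrpl13 (0.77) and Mrps7 (0.68) had the largest rises among them, and Mrpl23 (-0.33) and Mrpl52 (-0.31) the largest falls. From P2 to P9, 34 of the 67 were higher, against 3576 of all 12521 genes, and 1 was lower. The median LFC in this step was 0.23, where other genes under 600 bases had 0.34 and those of 600 to 1000 bases 0.22. Between layers 22 of the 67 were lower in LII, near the share of 3824 of 12521 over all genes, and 0 were higher.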
